A study of Mus musculus with 12 samples.

Results

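The regions described here are 6813 ATAC-seq peaks from libraries labelled as mouse bone marrow derived macrophages. Their level relative to the median peak was higher in rest-phase than in first-phase libraries. These peaks were taken from 139999, of which they are 4.87%. For each phase a peak's level M was computed as the mean of the authors' log2 group means, minus the median of that mean over all peaks of the phase. A member has an M in the rest phase at least 2 above its M in the first phase, and a rest-phase M above 0. M of 0 is therefore the level of the median peak, and a difference of 1 in M is a doubling relative to it. Members were thus chosen by their measured rest-phase and first-phase values, which are given as a description and were not tested.

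The series holds 12 libraries in 6 groups of 2. First-phase cells were diabetic or healthy, and the cells of both later phases were diabetic-trained or untrained. Per the labels, male C57BL/6J mice aged 8 weeks were allocated to both arms, and diabetes was induced with streptozotocin (42 to 45 mg/kg per day, 5 days) injected after a fast of 12 hours. Mice with a blood glucose above 16.9 mmol/L were taken as diabetic, and marrow of both arms was taken after 6 weeks of hyperglycemia in the diabetic arm. Rest-phase cells had grown for 7 days with recombinant murine M-CSF at 5 mmol/L glucose, in both arms. Second-phase cells had then received 10 ng/mL of IFN-γ together with 100 ng/mL of LPS for 16 hours, in both arms. The labels do not say when the first-phase cells were collected, nor whether each library stems from its own animal, so p-values measure only the spread between these libraries, which may be technical. The header of the tables does not tie the mean columns to the diabetic or the control arm. The first mean column is called group A and the second group B, and the letters need not stand for the same arm in different phases.

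ATAC-seq cuts DNA where it is not wrapped in nucleosomes, so reads pile up at active promoters and enhancers. M-CSF, through its receptor CSF1R, drives marrow progenitors to become macrophages. The factor PU.1 opens macrophage enhancers together with C/EBP, RUNX and AP-1 factors, and MITF, TFEB and TFE3 bind E-boxes at genes of lysosomes. Macrophages grown in this way take up apoptotic cells and modified lipids and digest them in lysosomes.

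Group means were solved for whole reads in each library, which gave reads in all 12 libraries for 139557 peaks and for 6765 members. The other 48 members have a first-phase group listed at 0. Reads in peaks ran from 3832347 to 18617444 per library, and the median member held 6 to 15 reads in first-phase libraries, 54 to 295 in rest-phase libraries and 49 to 295 in second-phase ones. Levels of single libraries below are log2 (reads + 1) after quantile scaling over all 12 libraries. Between the group A libraries of the first phase the variance was only 1.13 times that of counting, over peaks with at least 20 reads. The 65 peaks of 7 macrophage markers, 8 of them members, had library medians of 5.07 to 5.55 in the rest phase and 4.34 to 4.64 in the first phase. The 38 peaks of 7 neutrophil markers, with 0 members, had library medians of 3.29 to 4.28 in the rest phase and 6.54 to 7.41 in the first phase. The 56 peaks of 6 B cell markers, with 1 member, had 3.36 to 4.20 in the rest phase and 4.76 to 6.38 in the first. Erythroid markers (1 of 33 peaks a member) had 3.69 to 4.05 and 5.15 to 5.48, and T and NK cell markers (2 of 41) 4.35 to 4.78 and 5.31 to 5.99. The ranges of these 5 sets did not overlap between the phases. Those of megakaryocyte (3 of 38 peaks members), stem and progenitor (5 of 87), dendritic (3 of 40) and stromal markers (1 of 29) did, at 4.90 to 5.51, 4.45 to 4.71, 4.45 to 5.14 and 4.24 to 5.03 in the rest phase, against 4.75 to 4.95, 4.34 to 4.76, 4.76 to 5.53 and 4.51 to 4.54 in the first. Mast cell and basophil markers had 1 peak, not a member. The part of other cell types in the members' values was not tested. In bulk libraries, more cells of a type and more accessible chromatin per cell cannot be told apart.

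The second-phase libraries stood apart from each other within their groups. The variance between them was 15.7 times that of counting in group A and 7.85 times in group B, against 3.05 and 2.07 in the rest-phase groups A and B and 6.97 in first-phase group B. Across all peaks, library A1 of the second phase had a Spearman rank correlation of 0.971 with rest-phase library A1, and second-phase library B1 of 0.854 with it, where rest-phase library B1 itself had 0.790. Second-phase libraries A2 and B2 had correlations of 0.761 and 0.718 with the same rest-phase library, and 0.918 with each other. The 180 peaks of interferon response genes had a median log2 level of 5.02 in A1, 5.78 in A2, 4.93 in B1 and 5.82 in B2 of the second phase, against 4.78 to 5.02 in the rest-phase libraries. In this measure A1 and B1 of the second phase lay within or near the rest-phase range, and A2 and B2 above it. The labels give all second-phase cells as stimulated, and whether A1 and B1 were was not tested. Library numbers follow what 1 read is worth in the deposited mean and cannot be matched to labels, so second-phase results that rest on these libraries are given library by library or with each library left out.

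A few members cover a gene's start, and their sequence can be shown. Of 32817 RefSeq promoter windows (250 bases before to 50 after a gene's start, GRCm38.p6, the assembly also called mm10), 118 windows of 113 genes share at least 150 bases with a member peak, and 11205 with any peak. The following 6 were chosen as promoters of macrophage genes, after their values were seen. Capitals mark matches, on either strand, to TGANTCA (AP-1), GAGGAAGT (PU.1), TTGCNNAA (C/EBP) and the E-boxes CACGTG and TCATGTGA. Both E-boxes are sites of MITF and TFE factors.
Mmp12, macrophage elastase, plus strand, chr9:7347124-7347423: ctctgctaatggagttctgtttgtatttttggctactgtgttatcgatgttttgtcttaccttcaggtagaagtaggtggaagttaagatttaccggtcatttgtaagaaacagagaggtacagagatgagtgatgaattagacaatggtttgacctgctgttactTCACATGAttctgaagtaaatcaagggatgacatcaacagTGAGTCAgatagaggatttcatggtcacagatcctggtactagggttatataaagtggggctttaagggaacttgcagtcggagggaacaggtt
Gpnmb, a lysosomal glycoprotein, plus strand, chr6:49036268-49036567: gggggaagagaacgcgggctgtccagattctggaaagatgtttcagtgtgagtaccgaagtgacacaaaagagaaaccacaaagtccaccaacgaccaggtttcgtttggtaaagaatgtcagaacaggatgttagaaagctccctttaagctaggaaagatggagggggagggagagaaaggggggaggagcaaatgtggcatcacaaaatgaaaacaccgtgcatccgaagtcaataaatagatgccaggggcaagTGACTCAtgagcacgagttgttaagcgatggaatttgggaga
Trem2, a lipid-sensing receptor, plus strand, chr17:48346151-48346450: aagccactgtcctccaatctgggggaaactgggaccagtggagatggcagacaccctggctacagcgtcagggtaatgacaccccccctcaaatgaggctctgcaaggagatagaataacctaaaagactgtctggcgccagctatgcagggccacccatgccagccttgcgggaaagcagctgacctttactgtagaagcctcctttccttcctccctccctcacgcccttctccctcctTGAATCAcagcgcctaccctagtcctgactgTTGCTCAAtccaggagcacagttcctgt
C3ar1, the receptor of complement fragment C3a, minus strand, chr6:122856108-122856407: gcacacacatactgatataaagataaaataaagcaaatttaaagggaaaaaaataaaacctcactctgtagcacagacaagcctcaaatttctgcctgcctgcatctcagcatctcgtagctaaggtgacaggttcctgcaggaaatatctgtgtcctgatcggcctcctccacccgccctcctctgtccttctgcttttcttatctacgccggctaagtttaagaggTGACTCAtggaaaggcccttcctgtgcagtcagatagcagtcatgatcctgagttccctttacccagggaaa
C1qc, a chain of complement C1q, minus strand, chr4:136892865-136893164: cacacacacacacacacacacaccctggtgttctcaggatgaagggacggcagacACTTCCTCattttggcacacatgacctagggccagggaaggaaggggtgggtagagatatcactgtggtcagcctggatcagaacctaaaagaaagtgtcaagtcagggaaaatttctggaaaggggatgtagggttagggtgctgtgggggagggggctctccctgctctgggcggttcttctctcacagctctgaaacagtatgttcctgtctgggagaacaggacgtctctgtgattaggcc
Havcr2, which encodes TIM-3, plus strand, chr11:46454681-46454980: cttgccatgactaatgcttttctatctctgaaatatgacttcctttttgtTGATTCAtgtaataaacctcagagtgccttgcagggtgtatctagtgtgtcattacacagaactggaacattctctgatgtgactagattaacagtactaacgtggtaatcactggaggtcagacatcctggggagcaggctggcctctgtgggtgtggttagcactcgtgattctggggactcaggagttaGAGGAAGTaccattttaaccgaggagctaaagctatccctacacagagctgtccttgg

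Of these windows, 5 hold an AP-1 match, all but that of C1qc. As the windows were picked, this count does not stand for member windows at large. Those of C1qb, Ccl12, Dab2 and Clcn7 hold none of the marked motifs. The AP-1 match was in 32.2% of the 118 member windows, against 6.37% of the 11205 windows at any peak and 7.81% of all windows. PU.1 matches were in 10.2% of member windows, against 4.11% and 3.203%. The E-box TCATGTGA was in 5.08%, against 0.839% and 0.987%, while the E-box CACGTG was in 2.54%, against 10.7% and 7.15%. Matches to TTGCNNAA (C/EBP) were in 16.9% against 8.76% and 10.8%, to TGTGGTT (RUNX) in 11.9% against 4.23% and 5.27%, and to TGCTGAC (MAF) in 8.47% against 3.95% and 4.67%. GAAANNGAA (IRF) was in 9.32% against 7.13% and 8.55%, TTCNNNGAA (STAT) in 6.78% against 6.91% and 8.29%, and AGATAAG of GATA factors in 2.54% against 1.87% and 3.05%. GGGCGG, the box of Sp factors, was in 18.6% of member windows, against 63.1% and 35.6%. GGGANTTCC (κB) was in 0.847% against 2.39% and 1.68%, and AGGGGGCGC (CTCF) in 0% against 2.29% and 1.24%. Both strands were searched for all 13 motifs, none of these shares was tested, and a match is not a bound site. Base composition differed too: the median member window had 49.7% G and C and 4 CpG, against 61.0% and 21 at any peak and 52.7% and 7 over all windows. Whether the motif shares follow base composition was not tested.

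Members had a median first-phase M of -0.44, rest-phase M of 2.12 and second-phase M of 2.11. All 69999 peaks with a rest-phase M above 0 had medians of 0.67, 1.23 and 1.16. In the first phase 32.3% of members already lay above the median peak, and the highest first-phase M of a member was 2.70. Rest-phase M ran up to 5.19. The gap between the phases had a median of 2.43 and a highest value of 5.78.

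**Figure D1:**
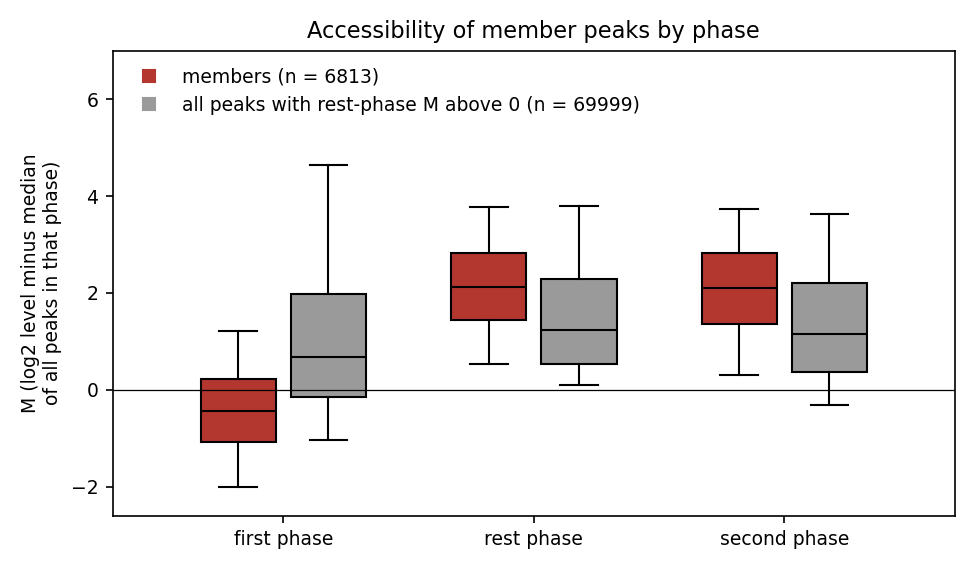
M, the log2 level minus the median of all peaks of the phase, in the first, rest and second phase for the 6813 members (left box of each pair) and for all 69999 peaks with a rest-phase M above 0 (right box). Boxes span the quartiles with the median as a line, and whiskers reach the 5th and 95th percentile. The members' median, at -0.44, lies below that of the peaks with a rest-phase M above 0, which include the members, in the first phase, and above it in the rest and second phases, at 2.12 and 2.11.

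The second-phase values were not used by the rule. M in the second phase was above 0 in 97.7% of members, against 86.8% of all peaks with a rest-phase M above 0. With 1 second-phase library left out it was above 0 in 94.99% to 98.6% of members. By the rule, members had a higher median rest-phase M than those peaks, 2.12 against 1.23, and the shares were not matched for it. The second-phase M lay within 1 of the rest-phase M in 96.3% of members, against 96.1% of peaks with a rest-phase M above 0 and 91.5% of all peaks. Without A1, A2, B1 or B2 this share of members was 85.7%, 97.6%, 91.8% or 98.7%. The second-phase M lay 1 or more above the rest-phase M in 166 members (2.44%), against 2.83% of peaks with a rest-phase M above 0 and 7.42% of all peaks. It lay 1 or more below it in 86 members (1.26%), against 1.11% and 1.03%. Both counts change with the library left out, to between 7 and 341 above and between 31 and 687 below. The second-phase M was at least 2 above the first-phase M in 75.7% of members, and in 66.3%, 83.4%, 76.9% or 71.3% without A1, A2, B1 or B2. It was at least 1 above it in 99.7%, and in 96.6% to 99.9% without 1 library. The phases share the rest and first libraries with the rule, so these shares are a description.

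The rule used the mean of groups A and B, so a member can pass it through 1 group alone. Among the 4 pairings of a rest-phase with a first-phase group, the difference was at least 1 in all 4 for 97.6% of members and at least 2 in all 4 for 46.2%. Only 3 members had a pairing with a difference below 0. These are the values that the rule used, and nothing is read from them. The lowest rest-phase library exceeded the highest first-phase library in 6649 of 6765 members (98.3%), against 18.8% of all peaks. As the rule used this contrast, nothing is read from that count. The lowest second-phase library exceeded the highest first-phase library in 6459 members (95.5%). This held for 18% of all peaks and 29.6% of peaks with a rest-phase M above 0. Each second-phase library by itself lay above every first-phase library in 99.9% (A1), 97.9% (A2), 98.9% (B1) and 97.6% (B2) of members, against 33.7% to 35.1% of all peaks. The rule used the first-phase values, so nothing is read from these second-phase counts either.

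Members held 13.1%, 11.8%, 9.30% and 10.5% of the reads in peaks in the rest-phase libraries A1, A2, B1 and B2. In the first-phase libraries they held 1.35%, 1.22%, 1.39% and 1.99%. In the second-phase libraries they held 13.5%, 10.6%, 10.4% and 11.05%. The widest 95% Wilson interval, that of second-phase B1, ran from 10.3% to 10.4%, and these intervals cover counting error only. The rule sets the gap between the rest-phase and first-phase shares, and the ranges of the second and rest phases overlapped.

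**Figure D2:**
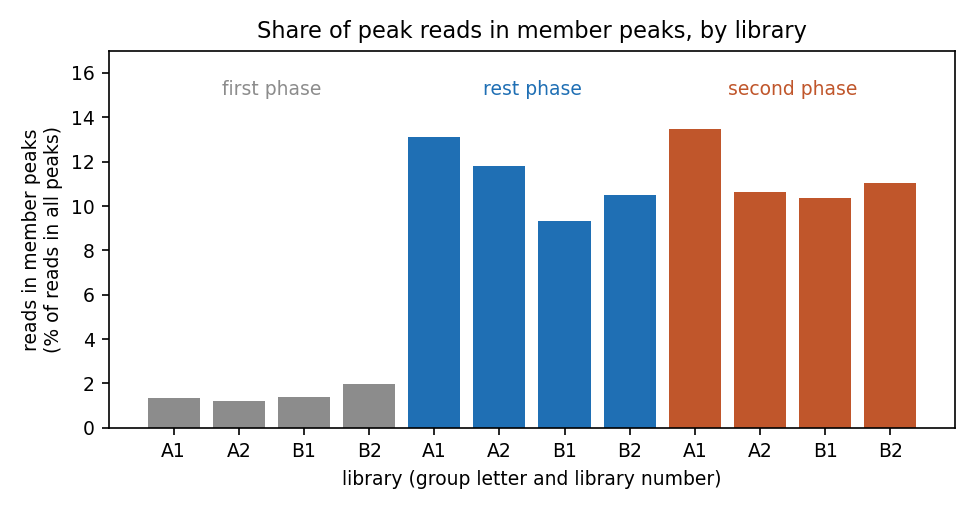
Share of the reads in all peaks that fall in the 6813 member peaks, as a percentage, for each of the 12 libraries in the order first, rest and second phase. First-phase libraries lie between 1.22% and 1.99%, and all others between 9.30% and 13.5%.

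The members with the widest gap between the rest and the first phase included several with almost no first-phase reads. The promoter of Mmp12 (chr9:7347146-7347545) held 356, 216, 96 and 171 reads in rest-phase libraries A1, A2, B1 and B2. In the first phase it held 12 and 8 reads in B1 and B2 and was listed at 0 in group A. An intergenic peak near F9, the gene of coagulation factor IX, held 359, 333, 91 and 179 reads in the rest phase, against 5 and 4 reads in first-phase B1 and B2 and a listed 0 in group A. A peak 11831 bp from the start of Mrc1, which encodes the macrophage mannose receptor, held 231, 221, 33 and 64 reads in the rest phase, against 5 and 3 in first-phase B1 and B2 and a listed 0 in group A. Peaks at Kif3a and Fgf7 likewise had a first-phase group listed at 0, and folds are not given for these 5.

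The other members among the 12 widest gaps were listed at 0 in no group. At Aopep, which encodes an aminopeptidase, an intronic peak had levels of 8.86, 8.39, 8.30 and 8.29 (log2) in rest-phase A1, A2, B1 and B2, against 3.55, 2.25, 3.38 and 3.58 in the first phase. At Stmn4, a stathmin gene, an exonic peak had 9.03, 8.93, 8.45 and 8.65 in the rest phase, against 4.51, 3.26, 3.38 and 3.92 in the first. In both, all rest-phase libraries lay above all first-phase libraries, a gap for which they were chosen. Peaks at Vma21, Atp2b3, Gm29683 and 4930526H09Rik were also among the 12 widest gaps, with rest-phase M between 2.40 and 3.44.

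The most accessible members in the rest phase lay mostly outside promoters. A peak 6758 bp upstream of Mylk2 had the highest rest-phase M, 5.19, with levels of 10.30, 10.02, 10.06 and 10.15 (log2), against 6.55, 6.52, 6.94 and 6.51 in the first phase. A peak 5765 bp upstream of Lgals3, the gene of galectin-3, a lectin abundant in macrophages, had 10.36, 9.79, 9.98 and 10.05, against 7.21, 7.09, 7.12 and 7.05. Peaks at D730003I15Rik, Osbpl8, Gm17746, Cadm1, Rapgef5, Tmem202, Vps8, Nav1, Gramd1b and Fam120a followed, all with a rest-phase M of at least 4.80. Of these 12, the Gramd1b peak alone lies in a promoter.

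**Figure D3:**
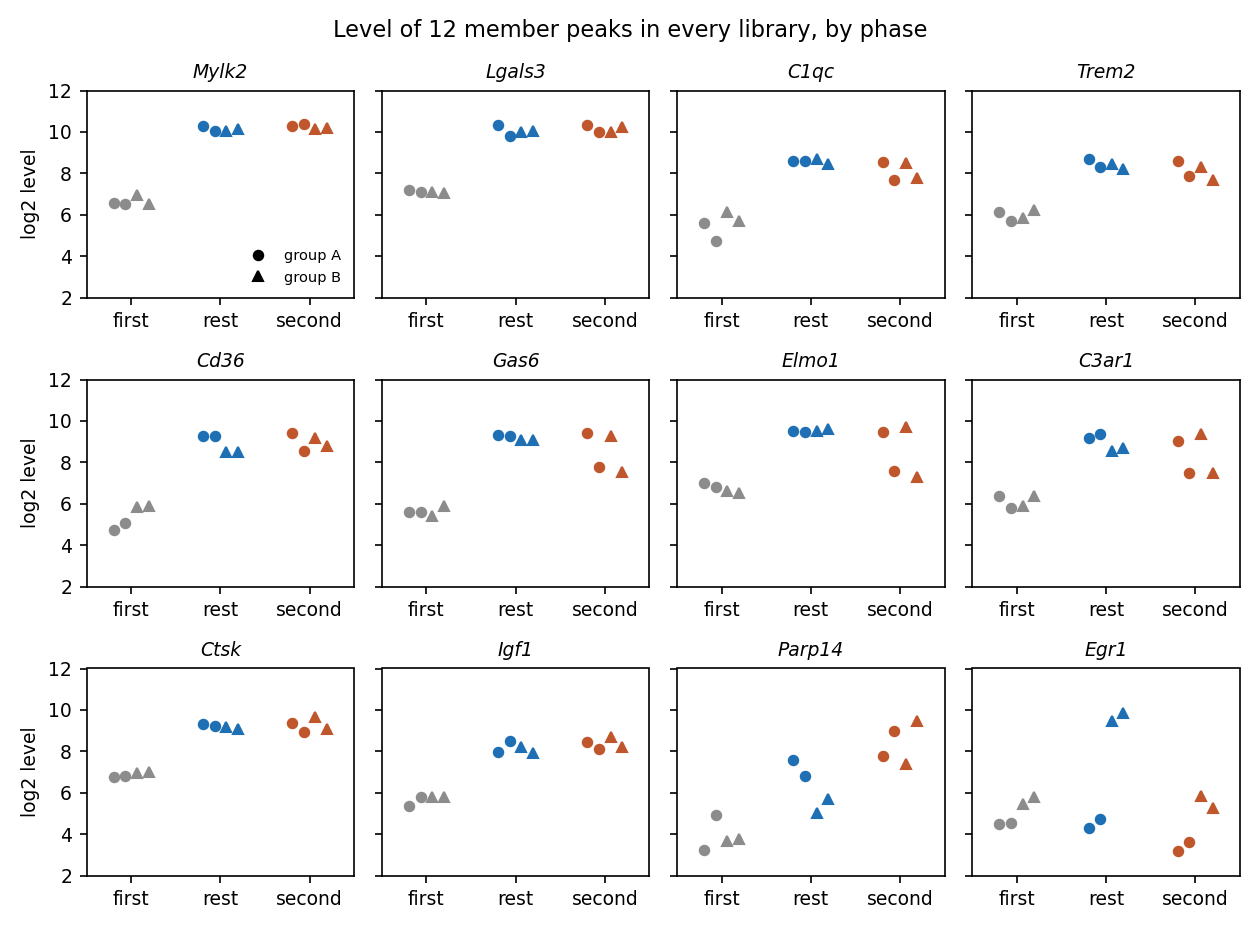
Log2 level (quantile-scaled reads + 1) of 12 member peaks in every library, in the first, rest and second phase, with circles for group A and triangles for group B. In 11 panels all rest-phase libraries lie above all first-phase libraries. In the Egr1 panel this holds for rest-phase group B, at 9.45 and 9.86, and not for group A, at 4.32 and 4.76. In Gas6, Elmo1 and C3ar1 the second-phase libraries split into a higher and a lower one in each group.

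By the deposited annotation, promoters, up to 3 kb from a start, held 16.5% of members, against 26.1% of all peaks and 35.1% of all peaks with a rest-phase M above 0. Within 1 kb of a start lay 7.53% of members, against 16.7% of all peaks. Introns held 42.8% of members against 36.7%, and distal intergenic DNA 34.6% against 30.2%. The median distance to the nearest start was 15648 bp in members and 10971 bp in all peaks, and 22.8% against 15.9% lay over 50 kb away. A second-phase M above 0 was found in 98.6% of promoter members and in 97.5% of members outside promoters.

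Of the peaks on chromosome X, 242 of 2952 (8.20%) were members, against 3.57% to 5.89% on the 19 autosomes. Peaks on X as a whole had a median rest-minus-first M of 0.47, against -0.04 on the other chromosomes. Their median log2 level was 3.87 to 4.66 in the rest-phase libraries and 3.68 to 3.85 in the first-phase libraries, while the peaks of the other chromosomes had medians of 4.78 to 4.80 and 4.71 to 4.82. Rest-phase B1, the library of least depth in that phase, had the lowest X level. The labels give all mice as male, and what part depth or the makeup of the cell samples has in the X values was not tested.

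Members lay in 5345 stretches when neighbours within 20 kb were joined, and 36.5% of them had another member in their stretch. There were 266 stretches of at least 3 members and 23 of at least 6. Around Lgals3 and Dlgap5 (chr14:47350921-47388251), 10 of 16 peaks were members, with a median M of 2.41 in the rest phase and 0.04 in the first. At Mmp12 (chr9:7330336-7362279), 10 of 11 peaks were members, with 1.64 and -1.22. At Igf1, the gene of insulin-like growth factor 1 that macrophages secrete, 9 of 16 peaks were members (chr10:87792322-87860486), with 1.90 and -1.23. Around Ccl2 and Ccl7, genes of monocyte-attracting chemokines, 8 of 14 were members, with 3.49 and 0.72. Pdgfb, which encodes a growth factor chain, had 8 of 12, Asph 8 of 15 and Hmga2 8 of 15. Rgs1, a regulator of G protein signalling, had 7 of 8, Pmp22 7 of 8, Cd36 6 of 11 and Dab2, an endocytic adaptor, 5 of 7.

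Members were assigned to 4123 of the 19395 genes that have a peak, to 2728 of them with a single member and to 141 with 5 or more. The genes with most members were Pvt1 (14 of 92 peaks), Klf4 (13 of 75), Rasgef1b (13 of 73), Aopep (12 of 59), Apbb2 (12 of 61) and Igf1 (12 of 30), followed by 1700016G22Rik, Frmd4a, Cadm1 and Acvr2a with 11 each. A gene with many peaks has more chances, so the share is given beside the count. Among these 10 the share was highest at Igf1 and lowest at Pvt1, where it was 15.2%.

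The peaks of 23 gene lists were counted against the 4.87% of all peaks that are members. In 12 lists the share was above that value. The highest shares were in 4 lists of macrophage work: lipid uptake and scavenger receptors (27 of 228 peaks, 11.8%), efferocytosis (46 of 402, 11.4%), alternative activation (35 of 328, 10.7%) and lysosome (32 of 322, 9.94%). Lists share genes, and no test was made of these shares.

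**Figure D4:**
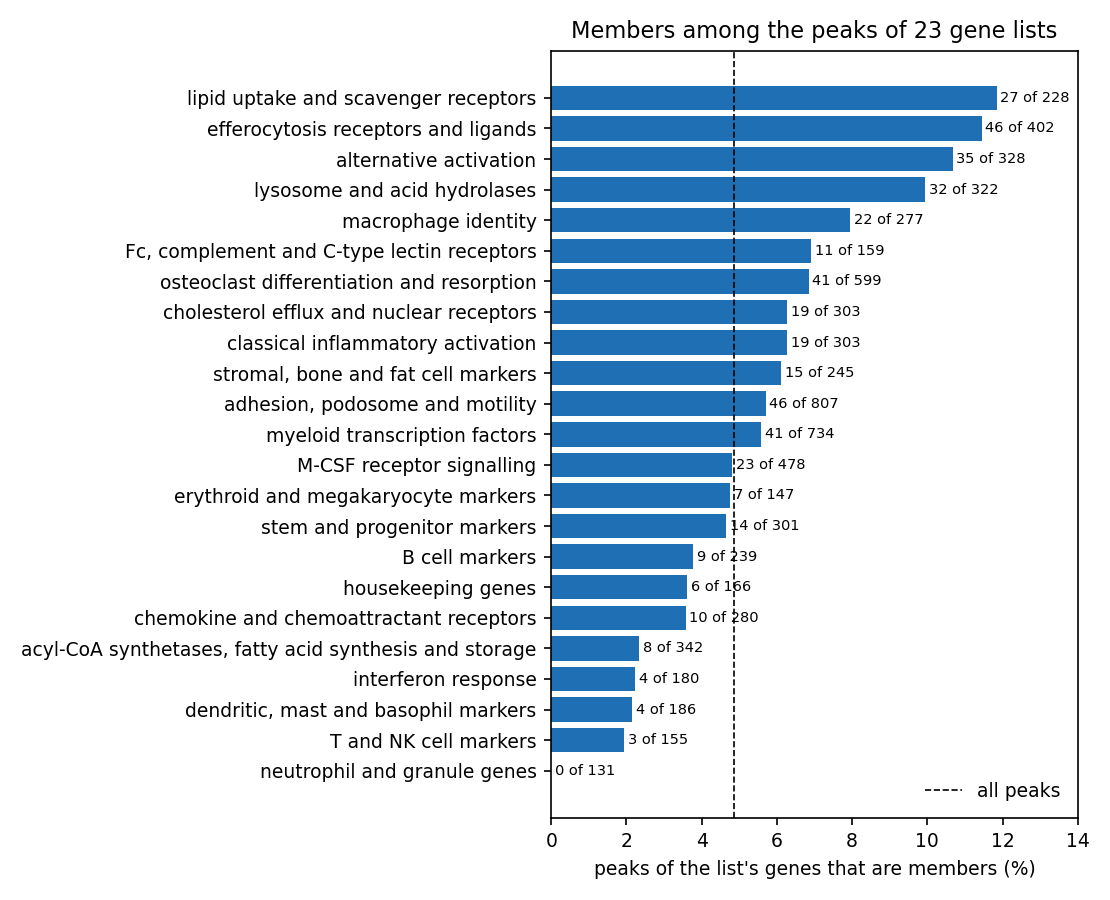
Percentage of the peaks assigned to the genes of each of 23 lists that are members, with the number of member peaks and of all peaks beside each bar. The dashed line is the share over all peaks, 4.87%. Lipid uptake, efferocytosis, alternative activation and lysosome lists stand at 9.94% to 11.8%, and the neutrophil list at 0 of 131.

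Among receptors and markers of macrophages, 22 of 277 peaks (7.94%) were members, in 10 of 20 genes. The promoter of C1qc stood at log2 levels of 8.59, 8.57, 8.70 and 8.44 in rest-phase libraries, against 5.59, 4.75, 6.13 and 5.70 in the first phase. Its neighbour C1qb had a promoter member at M 3.11 in the rest phase and 0.44 in the first. Cd14, the LPS co-receptor, had a promoter member at 3.73 and 1.40. Csf1r, the M-CSF receptor, had 3 members of 11 peaks, the highest an intronic assignment at 3.44 and 1.16. Mertk, Cx3cr1 and Maf also had members, with rest-phase M of 2.74 to 2.96. Of Adgre1, Fcgr1, C1qa and Cd68, markers of the cell type, none had a member. The 65 peaks of the 7 macrophage markers nonetheless had median M values of -0.17, 0.72 and 0.94 in the first, rest and second phases.

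Among myeloid transcription factors, 41 of 734 peaks (5.59%) were members. Klf6, Klf4 and Runx1 led, with rest-phase M of 4.38, 4.16 and 3.86 against 0.40, 1.92 and 1.31 in the first phase. Members at Irf8, Cebpa, Tfec, Egr2, Atf3 and Mitf had rest-phase M of 1.96 to 3.22. Of M-CSF signalling genes, 23 of 478 peaks (4.81%) were members, a share close to that of all peaks. Socs1, an inhibitor of cytokine signalling, Stap1, an adaptor that binds the M-CSF receptor, and Pik3r1, a PI3K subunit, led with 4.28, 4.30 and 3.90, against 1.97, 1.87 and 0.56.

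For the uptake of dying cells, members were found at the bridging ligand Gas6, the receptors Mertk, Lrp1 and Itgav, and the engulfment machinery Elmo1, Elmo2, Dock1 and Rac1. A peak of Elmo1 in a 5′ UTR stood at log2 levels of 9.51, 9.46, 9.53 and 9.62 in rest-phase libraries, against 7.02, 6.80, 6.64 and 6.51 in the first. In the second phase it had 9.48 in A1, 7.59 in A2, 9.71 in B1 and 7.30 in B2. A peak 9464 bp upstream of Gas6 had 9.34, 9.27, 9.08 and 9.09 in the rest phase, against 5.59, 5.60, 5.42 and 5.90. Its second-phase levels were 9.41, 7.76, 9.25 and 7.53. Both peaks thus stayed at the rest-phase level in A1 and B1 and lay between the first-phase and rest-phase levels in A2 and B2. An intronic peak of Lrp1 had 9.61, 9.27, 9.09 and 9.40 in the second phase, 9.55, 9.20, 9.03 and 8.74 in the rest phase, and stayed high in all 4.

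For lipid uptake, Cd36, a receptor for oxidised lipoproteins and fatty acids, had 6 members of 27 peaks. The highest had 9.27, 9.25, 8.49 and 8.52 in the rest phase, against 4.71, 5.08, 5.82 and 5.90 in the first. Trem2 had its promoter among the members, at 8.68, 8.32, 8.46 and 8.20 against 6.14, 5.70, 5.87 and 6.25. Lpl, lipoprotein lipase, had 5 members of 18 peaks, and the fatty acid binding protein genes Fabp4 and Fabp5 had 1 and 2. Scavenger receptor genes Msr1, Marco, Colec12 and Scarb1 had members with rest-phase M of 1.14 to 3.59. For cholesterol efflux and nuclear receptors, 19 of 303 peaks (6.27%) were members. They lay at Nceh1, a cholesteryl ester hydrolase (4.38 in the rest phase and 1.75 in the first), at the exporter genes Abcg1 (4.04 and 1.97) and Abca1 (3.42 and 0.25), and at Nr1h3, which encodes LXRα (3.57 and 1.15). Pparg had 5 members of 29 peaks. Acyl-CoA and fatty acid synthesis and storage genes had 8 of 342 (2.34%), led by Acsl3, Acss2 and Plin2.

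Of lysosomal genes, the cathepsins Ctsk and Ctsb led, with rest-phase M of 4.32 and 4.21 against 1.96 and 2.13. Ctsk had 4 members of 8 peaks. Subunits of the proton pump that acidifies lysosomes had members at Atp6v1a, Atp6v1c1, Atp6v0a1 and Atp6v0d2, the last with 6 of 18 peaks. Lipa, the acid lipase, had 3 of 16, and Npc2, Hexa, Grn, Ctsl and Lamp2 had 1 each. The osteoclast list, which shares several of these genes, had 41 of 599 (6.84%). It included Tnfrsf11a, the receptor RANK, with 4 of 21 peaks, and the fusion genes Dcstamp and Ocstamp with 1 each. Adhesion and podosome genes had 46 of 807 (5.70%), led by Elmo1, Sh3pxd2b and Dock10. Complement, Fc and C-type lectin receptors had 11 of 159 (6.92%), led by C3ar1, Clec12a and Mrc1.

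Among classical inflammatory genes, 19 of 303 peaks (6.27%) were members before any stimulation, and 7 of these were at Ccl2. The Ccl2 promoter stood at log2 levels of 9.38, 9.52, 9.40 and 9.20 in rest-phase libraries, against 7.19, 6.73, 6.56 and 6.98 in the first. Members at Tnfaip3, an inhibitor of NF-κB signalling, and at Il1a had rest-phase M of 4.13 and 3.79. Alternative activation genes with members were Klf4, Myc, Mrc1, Tgm2, Egr2, Pparg, Irf4, Il10, Arg1, Ccl24, Mgl2 and Stat6, with rest-phase M of 1.08 to 4.16. Interferon response genes had 4 members of 180 peaks (2.22%), among them peaks at Ciita, Gbp3 and Mx2.

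Of 7 lists of other cell types, 6 had a share of members below the 4.87% of all peaks, and that of stromal, bone and fat cells was above it. Of the shorter marker sets, those of megakaryocytes, dendritic cells and stem and progenitor cells had 7.89%, 7.5% and 5.75% members, and that of T and NK cells 4.88%. None of 131 peaks of neutrophil and granule genes was a member, and 66 of them had the opposite change, with the first-phase M above 0 and at least 2 above the rest phase. Their median M was 1.71, -0.69 and -0.63 in the first, rest and second phases. T and NK cell markers had 3 of 155 (1.94%), dendritic, mast and basophil markers 4 of 186 (2.15%), chemokine receptors 10 of 280 (3.57%), housekeeping genes 6 of 166 (3.61%) and B cell markers 9 of 239 (3.77%). The B cell list's members lay at Il7r, Blnk, Bach2 and Ms4a1, with none at Cd79a or Pax5. Stem and progenitor markers had 14 of 301 (4.65%), 7 of them at Mecom. Erythroid and megakaryocyte markers had 7 of 147 (4.76%), led by Treml1, Vwf and Fli1. Stromal, bone and fat cell markers had 15 of 245 (6.12%), led by Runx2, Kdr and Cebpa, and 4 of these were at Spp1, the gene of osteopontin.

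In the second phase, the members' departures from the rest phase depended on the library. Relative to the mean of the rest-phase libraries, 880 of 6765 members (13.01%) lay 1 or more lower in A2 and 909 (13.4%) in B2, against 8.97% and 12.5% of all peaks. In A1 and B1 it was 30 (0.443%) and 274 (4.05%), against 1.58% and 8.83% of all peaks. The numbers 1 or more higher were 160 (2.37%) in A1, 348 (5.14%) in A2, 258 (3.81%) in B1 and 527 (7.79%) in B2, against 1.95%, 11.5%, 7.74% and 13.7% of all peaks. The share of lower members in B2 was near that of all peaks. As the rule used the rest-phase values, nothing is read from a share of members that differs from that of all peaks. In A2 and B2 jointly, 609 members were 1 or more lower and 313 were 1 or more higher. A1 and B1 jointly had 20 and 64. The joint counts were made for members only, with no share over all peaks, so nothing is read from them. The median difference from the rest phase over members was 0.22 in A1, -0.22 in A2, 0.19 in B1 and -0.13 in B2. With the deposited means, the number of members at least 1 below the rest phase was 86 with all libraries, 687 when A1 was left out, 31 when A2 was, 219 when B1 was and 84 when B2 was. The number at least 1 above it was 166 with all libraries, and 287, 130, 341 and 7 when A1, A2, B1 or B2 was left out.

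**Figure D5:**
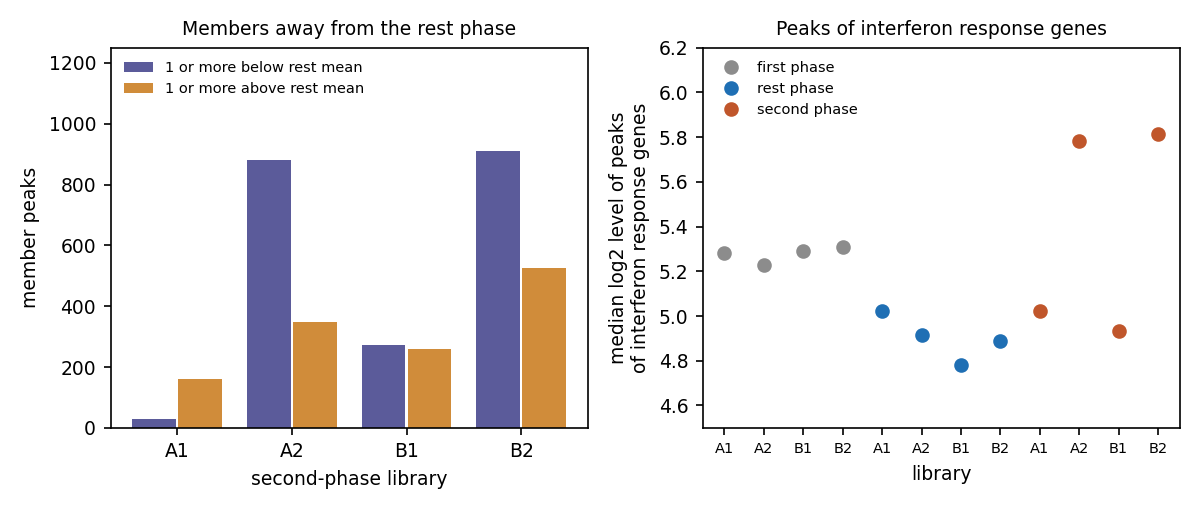
Left, the number of the 6765 members with reads that lie 1 or more (log2) below or above the mean of the rest-phase libraries, for each second-phase library. Right, the median log2 level of the 180 peaks of interferon response genes in each library. Second-phase libraries A2 and B2 have the most members below the rest phase, 880 (13.01%, against 8.97% of all peaks) and 909 (13.4%, against 12.5%), and the highest interferon medians, 5.78 and 5.82.

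By list, the members of chemokine and chemoattractant receptors lay lowest in A2 and B2, at medians of -0.84 and -0.79 from the rest phase, against 0.21 and 0.35 in A1 and B1. Alternative activation members had -0.55 and -0.51 in A2 and B2, against 0.31 and 0.11 in A1 and B1. M-CSF signalling members had 0.14 and 0.23 in A2 and B2, above the median of -0.22 and -0.13 over all members. The interferon list's 4 members had 0.37 and 0.39. The C3ar1 promoter had second-phase levels of 9.02 in A1, 7.51 in A2, 9.35 in B1 and 7.50 in B2, and 9.20, 9.38, 8.57 and 8.69 in the rest phase. The intergenic Cebpa peak had 7.72, 6.35, 7.84 and 5.74 in the second phase, and 7.92, 8.02, 7.59 and 7.63 in the rest phase.

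The 6 members with the highest second-phase M relative to the rest phase had their highest levels in A2 and B2. A peak near 1700016G22Rik had 5.99 in A1, 8.47 in A2, 2.95 in B1 and 8.98 in B2, and 5.50, 5.19, 5.97 and 5.42 in the rest phase. An exonic peak assigned to Parp14, an interferon-inducible ADP-ribosyltransferase, had 7.78, 8.99, 7.37 and 9.48 in the second phase, and 7.60, 6.81, 5.03 and 5.70 in the rest phase. A peak 32693 bp from Ptgs2os2, an opposite-strand transcript named for the cyclooxygenase-2 gene, held 99, 630, 23 and 462 reads in the second phase and 125, 73, 7 and 21 in the rest phase. Gm5142 and Serpina3i had the same order, with A2 and B2 at 8.30 to 8.90 and A1 and B1 at 4.65 to 6.36, and Mir6390 was highest in B2, at 7.76. All second-phase libraries exceeded all rest-phase libraries in 210 of 6765 members (3.10%), against 2.26% of all peaks. All rest-phase libraries exceeded all second-phase libraries in 110 members (1.63%), against 3.64%. Among peaks with a rest-phase M above 0 these shares were 1.99% and 5.39%. These counts need every second-phase library. The rule used the rest-phase values, so nothing is read from them. By single library, 13.01% (A2) and 13.4% (B2) of members lay 1 or more below the rest-phase mean, against 8.97% and 12.5% of all peaks. In A1 and B1 it was 0.443% and 4.05%, against 1.58% and 8.83%.

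The 6 members with the lowest second-phase M relative to the rest phase lay at Egr1, Id3, Tuba1c, Spp1, Apobec1 and Mmp12, the last a peak other than that at its start. Near Egr1, an immediate early transcription factor gene, second-phase group A had levels of 3.21 and 3.64 and group B of 5.87 and 5.25. Rest-phase group A had 4.32 and 4.76, and group B 9.45 and 9.86. Id3, which encodes an inhibitor of helix-loop-helix factors, had 3.26, 4.01, 4.80 and 4.70 in the second phase, and 3.10, 5.35, 8.48 and 8.87 in the rest phase. At both genes the high rest-phase level that made the peak a member was in group B alone.

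Within a phase, groups A and B were compared by the authors and by limma. Members that passed the rule through 1 rest-phase group alone had to differ between the groups, so their values are given with no test. The rest-phase shares below include them, so nothing is read from a share of members above that of all peaks. In the rest phase the authors' deposited table called 4391 of 6813 members (64.5%) higher in group A at an adjusted p under 0.05, against 39.7% of all peaks and 54.8% of peaks with a rest-phase M above 0. It called 3 members higher in group B (0.0440%), against 0.0929% of all peaks. In that table the median log2 fold of A over B was 1.39 in members and 1.04 over all peaks, which themselves lean to A. With reads quantile-scaled, limma put the median of all peaks at -0.02 and that of the members at 0.24. It called 1577 of 6765 members (23.3%) higher in A, against 6.48% of all peaks, and 482 (7.12%) higher in B, against 5.56%, at a Benjamini-Hochberg adjusted p under 0.05. Among peaks with a rest-phase M above 0 these shares were 10.9% and 8.79%. Without any 1 of the 4 libraries, the median log2 fold of A over B by limma was 0.19 to 0.31 in members. Over all peaks it was -0.04 to -0.01. Each of these fits leaves 1 library in a group, so the calls cannot be checked this way. Depth also differed between these groups, with 18617444 and 16002834 reads in peaks in A and 5459236 and 8775958 in B, and its part was not tested.

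The 1577 members higher in A had median levels of 7.85 and 7.69 in rest-phase A1 and A2, against 6.71 and 6.73 in B1 and B2, and 13.4% of them were at promoters. In the second phase the same members had medians of 7.79 in A1, 6.95 in A2, 7.86 in B1 and 7.14 in B2. The 482 members higher in B had 6.24 and 6.05 in A1 and A2, against 7.25 and 7.23 in B1 and B2. By list, set beside the 23.3% of all members called higher in A and the 7.12% called higher in B, limma called 12 of 27 members of lipid uptake and scavenger receptors higher in A and 3 higher in B. In the osteoclast list it called 15 of 41 and 4, in efferocytosis 14 of 46 and 4, in adhesion and podosomes 13 of 45 and 1, and in the Fc, complement and C-type lectin list 6 of 10 and 0. Of the lysosome list it called 6 of 32 higher in A and 6 higher in B. Of housekeeping members it called 0 of 6 and 2, of stromal ones 1 of 15 and 2, and of the interferon list's 4 members none. These counts include members that passed the rule through 1 rest-phase group alone, and no difference between lists was tested.

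The member that differed most towards A by the deposited fold was an intronic assignment of Mrc1 (chr2:14210718-14211117), with log2 levels of 7.26 and 7.32 in A, against 3.70 and 4.30 in B. In the authors' deposited table its log2 mean was 8.20 in rest-phase A and 3.63 in rest-phase B, against 2.19 and 3.70 in first-phase A and B, so group A alone carried it past the rule. A peak near Htr1f, a serotonin receptor gene, had 6.44 and 6.40 in A, against 3.12 and 3.65 in B. Its deposited mean in group B was 3.06 in the rest phase and 2.53 in the first. Dusp6, a phosphatase that inactivates ERK kinases, had an assigned peak at 7.81 and 7.95 in A, against 5.73 and 5.07 in B. Ankrd29 and Clec4a2 were the other 2 of the 5 largest. The deposited group B means of Dusp6, Ankrd29 and Clec4a2 were 4.63, 3.85 and 4.52 in the rest phase. In the first phase they were 3.57, 3.24 and 3.47. Group A thus carried these peaks past the rule as well, and no test is given. At all 5 the A libraries lay above both B libraries, which their choice by the fold sets.

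The authors' deposited table called 3 members higher in B. At these, the rule was passed with a rest-phase level that was high in group B, so no test is given. The Egr1 peak, at 4.32 and 4.76 in A against 9.45 and 9.86 in B, had a log2 fold of -3.24 in that table. A peak of Slc7a13, an amino acid transporter gene, had 3.68 and 3.85 in A, against 7.85 and 7.51 in B. Id3 had 3.10 and 5.35 in A, against 8.48 and 8.87 in B.

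In the second phase the authors' deposited table called 3496 members (51.3%) higher in A, against 36.6% of the 101999 peaks it adjusted over and 48.8% of those with a rest-phase M above 0. It called no member higher in B, against 0.00588% of these peaks. At an unadjusted p under 0.05 it has 5228 of 6813 members, in both directions together. By the same cutoff it has 59927 of all 139999 peaks and 50443 of the 69999 with a rest-phase M above 0. By limma with quantile scaling no member was called, nor any other of the 139557 peaks. An unadjusted p under 0.05 was found by limma in 7 of 6765 members and in 1076 of all 139557 peaks. The 5 largest called folds towards A were at Gpx3, Stra6l, A230009B12Rik, Zfp469 and Emp1, each at an adjusted p of 0.0242 in the authors' deposited table and of 1 by limma. At Emp1, an epithelial membrane protein gene, the levels were 7.66 and 5.79 in A, against 7.23 and 4.61 in B, so that the libraries within a group were further apart than the groups. At Stra6l, both A libraries, at 6.69 and 6.53, lay above both B libraries, at 4.80 and 5.52. In the first phase neither the authors' table nor limma called any member or any other peak (0% of all peaks). At an unadjusted p under 0.05 the authors' table had 57 of 6813 members and 812 of all 139999 peaks. By limma it was 363 of 6765 members and 5214 of all 139557 peaks.

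The threshold on the gap runs through a continuum. Just inside it were peaks at Hipk2 (M of 1.95 in the rest phase and -0.05 in the first), Lactb2 (1.64 and -0.36) and Jam3 (1.32 and -0.68). Just outside were peaks at Mapkap1 (1.15 and -0.85), Cartpt (1.25 and -0.75) and Sptbn1 (1.90 and -0.10). The same rule in the opposite direction, a first-phase M above 0 and at least 2 above the rest phase, would take 9349 peaks.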

How the data were processed

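The authors deposited a table per phase with the same 139999 peaks. Per the file headers and values, the deposited columns used here are 2 log2 means of scaled reads, 1 for each group, a shrunken log2 fold change, and its p-value and adjusted p-value, with the nearest gene and annotation. Per the submitters' processing notes the build was mm10 and the tools included HOMER 5.1, DESeq2, DiffBind 3.14.0, MACS2, Bowtie2 2.5.4, Picard 3.2.0, bedtools 2.28.0 and deepTools 3.2.1, whose roles and order the notes do not give. Each group mean was solved for the whole reads of its 2 libraries. Exactly 1 pair fitted every value above the floor, with a largest relative miss of 3.46e-09. Libraries are numbered by what 1 read is worth in the mean, smaller first, with no link to the labels. No column of per-sample values was left unused.

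The tables were joined on position, and members were taken by the rule given in the results. Deposited folds were turned to A over B. For the second phase, 38000 peaks with an adjusted p of 1 are left out of the background. Calls within a phase are the authors' deposited adjusted p under 0.05. Recovered reads were quantile-scaled, and limma tested log2 (value + 1): limma 3.58.1 (R 4.3.3, trend, Benjamini-Hochberg over 139557 peaks). The scripts were tested on simulated data. Named genes are the 12 widest gaps, the 12 highest rest-phase members, the 10 genes with most members, 3 per list, the 6 highest and 6 lowest second-minus-rest members, the 5 largest called folds per phase and direction, and 3 peaks on either side of the threshold. Other list genes are given with their counts, and the 6 promoters were chosen after their values were seen. The members, lists and rules were chosen with earlier results of these data known. Some genes that these rules select are not reported here.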

Additional observations from a re-analysis of the deposited data

How the results depend on the processing

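A threshold of 1.5 on the difference of M would take 13165 members and a threshold of 3 would take 1172. Without the limit on the rest-phase M there were 7116, with quantile-scaled reads 6746 (6279 of them shared with the 6813), with scaling to total reads 6087 (6008 shared), and without single libraries 5683 to 7491 (5524 to 6757 shared). The share with a second-phase M above 0 was 96.1% at a threshold of 1.5 and 98.9% at 3, and 94.99% to 98.6% without single libraries. The promoter share was 17.8% at 1.5 and 14.8% at 3. Of members, the authors' deposited table called 4394 between rest-phase groups. Of 6765 members limma called 2059 with quantile scaling, 2046 with a pseudocount of 0.5 and 2128 with at least 20 reads. It called 4580 with the authors' scaling and 3257 with total scaling. Of all 139557 peaks these settings called 16802, 16596, 17632 (of 138948 with at least 20 reads), 77236 and 29911, so the count over all peaks moved with the scaling too. Without any 1 rest-phase library the median log2 fold of A over B by limma was 0.19 to 0.31 in members and -0.04 to -0.01 over all peaks. These fits leave 1 library in a group, so the calls cannot be checked this way. In the second phase the deposited table called 3496 members. There limma called 0 members and 0 of all peaks under each setting that kept all libraries. At an unadjusted p under 0.05 these limma settings had 6 to 63 members and 1042 to 5331 of all peaks. Without any 1 second-phase library the median limma fold was -0.21 to 0.19 in members and -0.04 to 0.05 over all peaks. In the first phase there were 0 calls under all settings run. The direction of A over B in all peaks depends on the scaling: with the authors' scaling the median limma fold of all peaks was 1.31 for rest-phase and 1.14 for second-phase libraries, against -0.02 and 0.01 with quantile scaling. No paired analysis was possible because the columns carry no replicate numbers. First-phase libraries hold a median of 6 to 15 reads per member, which limits what can be said of single peaks there.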
